A study of Mus musculus with 16 samples.

Results

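Scavenger receptors for lipids and amyloid were examined in microglia sorted from the brain of an Alzheimer's disease mouse model. The set was chosen with earlier results of these data known, and its genes were looked up by symbol. It named 8 genes, Msr1, Scarb1, Colec12, Stab1, Mrc1, Lrp1, Cd163 and Cd5l. Of these, 7 were among the 17951 genes of the table and are described below, and Colec12 was not analysed here. The libraries came from 3 groups of Cd11b+ Cd45+ cells, and all animals had been injected with Methoxy-X04 (Me-X04), a dye that crosses into the brain and binds aggregated amyloid beta (Aβ). The WT group (n = 7) held Me-X04- microglia of wild-type mice labelled 2 months old. The transgenic groups held microglia of 5xFAD mice labelled 6 months old, sorted into cells without dye (TG Me-X04-, n = 5) and cells that carried dye (TG Me-X04+, n = 4). Libraries 1 to 4 of both TG groups bear the same genotype labels in pairs (TG1 to TG4), which were read as marking the same animal, so that cells with and without Aβ could be compared within 4 animals. The 5xFAD line overexpresses mutant human amyloid precursor protein and presenilin 1 from a promoter active in neurons, not in the microglia themselves. By the labels WT and TG animals differed in age as well as genotype, and the study's methods state the ages otherwise. Differences between WT and TG therefore cannot be told apart from differences of age.

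Scavenger receptors are membrane proteins that bind and take up modified lipoproteins, dead cell material and protein aggregates. Class A receptors such as Msr1 bind fibrillar Aβ and oxidised low-density lipoprotein (LDL), Scarb1 is the class B receptor for high-density lipoprotein, and Lrp1 is a large endocytic receptor of the LDL receptor family that takes up apolipoprotein E with its cargo. Stab1, Mrc1 and Cd163 are endocytic receptors best known from tissue-resident and border-associated macrophages, with ligands such as modified lipoproteins, mannosylated proteins and haemoglobin-haptoglobin, and Cd5l is a secreted scavenger receptor protein made by tissue macrophages.

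The values are log2 RPKM, which stands for log2 of the reads on a gene relative to its length in kilobases and to the library size, so levels can be set side by side between genes as well as between groups. The libraries held 15623664 to 22119327 reads on listed genes in WT, 17216633 to 25184600 in TG Me-X04- and 22430251 to 27579017 in TG Me-X04+. Genes of the mitochondrial genome took 12.6% to 31.3% of the reads in WT, 20.6% to 44.8% in TG Me-X04- and 31.3% to 56.8% in TG Me-X04+. With group means taken out, the first principal component parted the libraries into 2 sets, for which the labels name no factor, set A (libraries 1 to 3 of WT with 1 and 2 of each TG group, n = 7) and set B (the remaining libraries 4 to 7 of WT, 3 to 5 of TG Me-X04- and 3 and 4 of TG Me-X04+, n = 9). Differences are therefore also given within each set. All 12 microglial markers looked for were listed, with a summed level of 6183 to 9438 RPKM in WT, 5566 to 10210 in TG Me-X04- and 6699 to 9702 in TG Me-X04+. Since these were bulk samples, fewer cells of a type and less RNA per cell cannot be told apart.

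Aβ-laden microglia had less Stab1 than both other groups and more Scarb1 than WT microglia, while Lrp1, Msr1, Mrc1 and Cd163 did not pass the test in any comparison. A gene was called differentially expressed (DE) where its log2 fold change (log2FC) reached 0.7 in either direction and its adjusted p lay under 0.05 in limma's moderated test, with Benjamini-Hochberg adjustment over all 17951 genes. Between Me-X04+ and Me-X04- TG microglia, 1 of the 7 genes was DE, against 5.49% of all genes called DE in that comparison. This was Stab1, which was lower, a direction with 2.06% of all genes, and none of the 7 was DE higher in limma's test, a direction with 3.44%. Stab1 was also the 1 gene of the 7 whose groups did not overlap, against 7.93% of all genes. At an unadjusted p under 0.05 there were 2 of the 7, Stab1 and Scarb1, against 18.7% of all genes. With the animal as a random block the call of Scarb1 was added, and 2110 genes were called in place of 986, while replicate number as a fixed term called 894 genes and not Scarb1. The number term also ties WT libraries to TG libraries of the same number, which are different animals. Between TG Me-X04- and WT, none of the 7 was DE in limma's test, against 0.201% of all genes. No gene of the 7 reached an unadjusted p under 0.05 there, against 5.18% of all genes. Between TG Me-X04+ and WT, 3 of the 7 were DE, against 14.3% of all genes. Scarb1 was higher, a direction with 8.25% of all genes, and Stab1 and Cd5l were lower, a direction with 6.02%. For Stab1 and Scarb1, 2 of the 7, these groups did not overlap, against 10.5% of all genes. The median log2FC of the 7 genes was 0.06 between Me-X04+ and Me-X04- TG microglia, against -0.09 over all genes. It was 0.08 for TG Me-X04- and 0.19 for TG Me-X04+ against WT, where all genes gave 0.01 and -0.11. The comparisons share libraries, so they are not independent of each other.

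**Figure D1:**
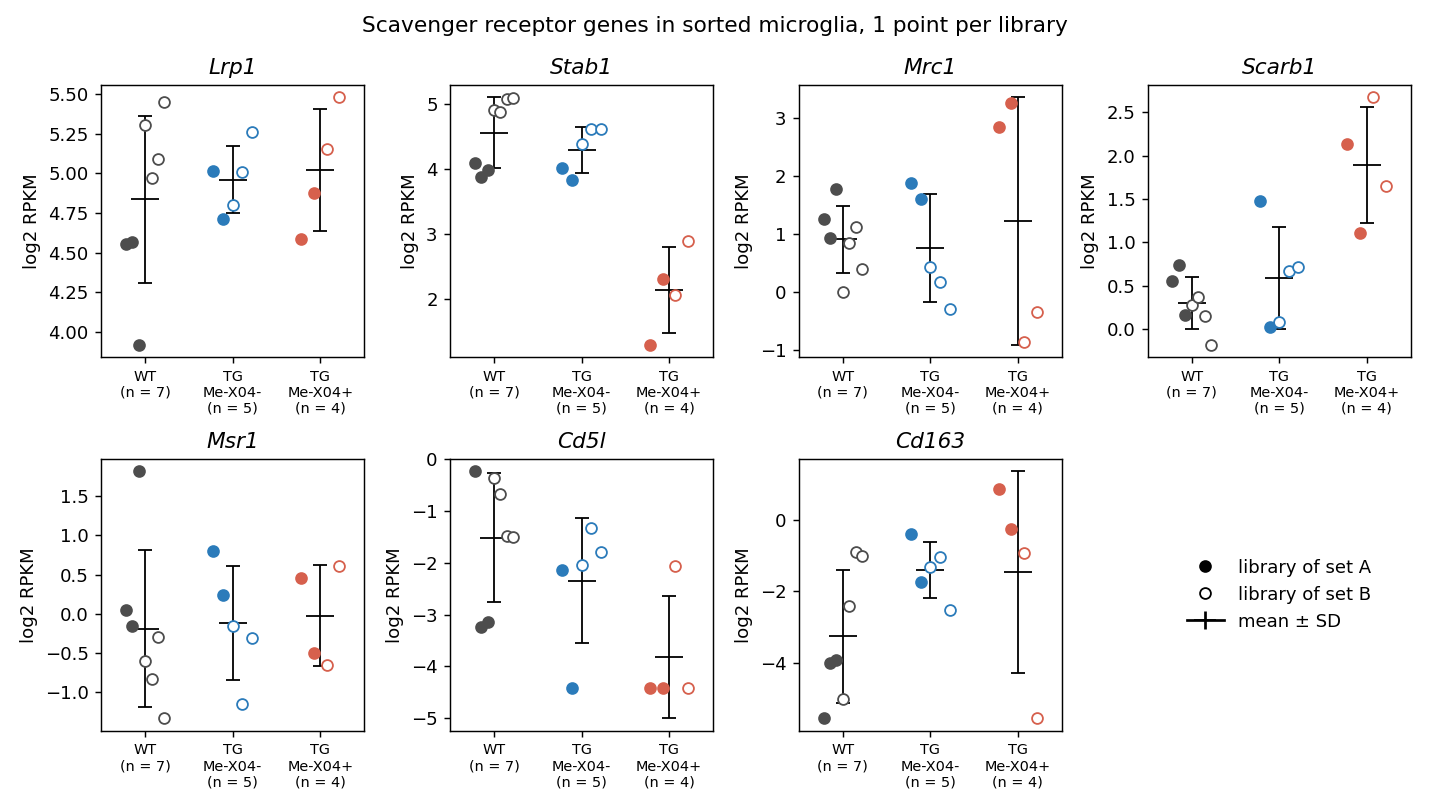
Level of each scavenger receptor gene in log2 RPKM (vertical axis) by group (horizontal axis), with 1 point per library, filled for set A and open for set B, and the mean ± SD of the group. The 4 TG Me-X04+ points of Stab1 lie between 1.29 and 2.88, below all others, those of Scarb1 lie above all WT points, and those of Mrc1 are parted by set.

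Stab1, a receptor for modified LDL and the matrix protein SPARC, lies on chromosome 14 from 31139013 to 31168641 on the minus strand (GRCm38, ENSMUSG00000042286). In WT its level ranged from 3.88 to 5.09 log2 RPKM with a median of 4.87. In TG Me-X04- libraries 1 to 5 it was 4.01, 3.82, 4.38, 4.62 and 4.60. In TG Me-X04+ libraries 1 to 4 it was 1.29, 2.30, 2.05 and 2.88. Every TG Me-X04+ library lay below every library of both other groups, which overlapped each other. These levels rest on 332 to 1783 reads per library in TG Me-X04+, 2729 to 6384 in TG Me-X04- and 2425 to 8724 in WT. The group means were 4.55 ± 0.54 in WT (SD, n = 7), 4.29 ± 0.36 in TG Me-X04- (SD, n = 5) and 2.13 ± 0.66 in TG Me-X04+ (SD, n = 4).

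Stab1 was thus 4.45-fold lower in Me-X04+ than in Me-X04- TG microglia (log2FC -2.15, standard error 0.34, limma adjusted p = 0.00126). It was 5.35-fold lower than in WT (log2FC -2.42, standard error 0.31, limma adjusted p = 5.45e-05). TG Me-X04- microglia and WT differed by -0.27 on the log2 scale, with a 95% interval of -0.89 to 0.35 (limma adjusted p = 0.999). The fall between dye-negative and dye-positive cells appeared in 4 of 4 animals, by 2.71, 1.52, 2.33 and 1.74 on the log2 scale in animals 1 to 4. In set A the difference between the TG groups was -2.12 and in set B -2.07. The call was lost in the 7 libraries of set A alone (limma adjusted p = 0.0582) and held in the other 26. Stab1 overlaps the neighbouring Nt5dc2 on the opposite strand by 112 bases, and nothing in the sources says that counting took strand into account. Nt5dc2 differed by -0.93 (limma adjusted p = 0.193).

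Scarb1, which binds high-density lipoprotein and takes up its cholesterol esters into the cell, was higher in TG Me-X04+ than in WT microglia. It lies on chromosome 5 from 125277087 to 125341094 on the minus strand (ENSMUSG00000037936). In WT it ranged from -0.18 to 0.74 log2 RPKM with a median of 0.28. In TG Me-X04- libraries 1 to 5 it was 1.47, 0.024, 0.077, 0.67 and 0.72. In TG Me-X04+ libraries 1 to 4 it was 2.13, 1.10, 2.67 and 1.65. All TG Me-X04+ libraries lay above all WT libraries, and TG Me-X04- library 1 reached into their range. The reads behind these values numbered 141 to 279 per library in WT, 170 to 388 in TG Me-X04- and 272 to 1238 in TG Me-X04+.

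The mean of Scarb1 was 0.30 ± 0.30 in WT (SD, n = 7), 0.59 ± 0.59 in TG Me-X04- (SD, n = 5) and 1.89 ± 0.67 in TG Me-X04+ (SD, n = 4). It was 3.01-fold higher in TG Me-X04+ than in WT (log2FC 1.59, standard error 0.35, limma adjusted p = 0.00466). Against TG Me-X04- the log2FC was 1.30 (standard error 0.38), just outside the threshold (limma adjusted p = 0.0526). With the animal as a random block it passed (limma adjusted p = 0.00973). With replicate number as a fixed term, which also ties WT libraries to unrelated TG animals, it did not (log2FC 1.31, limma adjusted p = 0.104). The cells with dye had more Scarb1 in 4 of 4 animals, with differences of 0.66 to 2.59 on the log2 scale. It also passed without TG Me-X04- library 1 (log2FC 1.52, limma adjusted p = 0.0289) and without TG Me-X04+ library 2 (log2FC 1.56, limma adjusted p = 0.0326). In all, 13 of 27 alternatives called it, with adjusted p-values of 0.00973 to 0.614 by limma. Set A gave a difference of 0.87 and set B one of 1.67. Against WT it was 1.13 in set A, where the call was lost (limma adjusted p = 0.319), and 2.01 in set B. TG Me-X04- and WT differed by 0.29, with a 95% interval of -0.40 to 0.99. The predicted gene Gm42633 lies within Scarb1 on the same strand over 2764 bases, so reads there could belong to either.

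Cd5l, the soluble scavenger receptor of tissue macrophages, was a gene of few reads in all groups. It lies on chromosome 3 from 87357881 to 87371073 on the plus strand (ENSMUSG00000015854). WT libraries held 2 to 34 reads of it. TG Me-X04- libraries 1 to 5 held 6, 0, 11, 18 and 12 reads. TG Me-X04+ libraries 1 to 4 held 0, 0, 9 and 0 reads. A count of 0 allows up to 3 reads at this depth, for counting error only, and 2 WT libraries were at or below that floor too, so the groups overlapped.

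On the log2 scale the mean of Cd5l was -1.52 ± 1.24 in WT (SD, n = 7), -2.35 ± 1.20 in TG Me-X04- (SD, n = 5) and -3.82 ± 1.18 in TG Me-X04+ (SD, n = 4). The difference of TG Me-X04+ from WT was -2.30 on the log2 scale (standard error 0.75, limma adjusted p = 0.0476), a fitted value that depends on the prior reads added to each count. The call was lost in 17 of 28 alternatives, among them the fit with the animal as a random block (log2FC -2.25, limma adjusted p = 0.0557). It was also lost without any one of WT libraries 1, 4, 5, 6 and 7 (adjusted p = 0.0859, 0.0895, 0.0832, 0.0727 and 0.0725 by limma) or of TG Me-X04+ libraries 1, 2 and 4 (adjusted p = 0.108, 0.122 and 0.107 by limma). The log2FC without each of these stayed between -2.30 and -2.09. Set A gave a difference of -2.20 and set B one of -2.23. Against TG Me-X04- the log2FC was -1.48, with a 95% interval of -3.17 to 0.22 (limma adjusted p = 0.348).

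**Figure D2:**
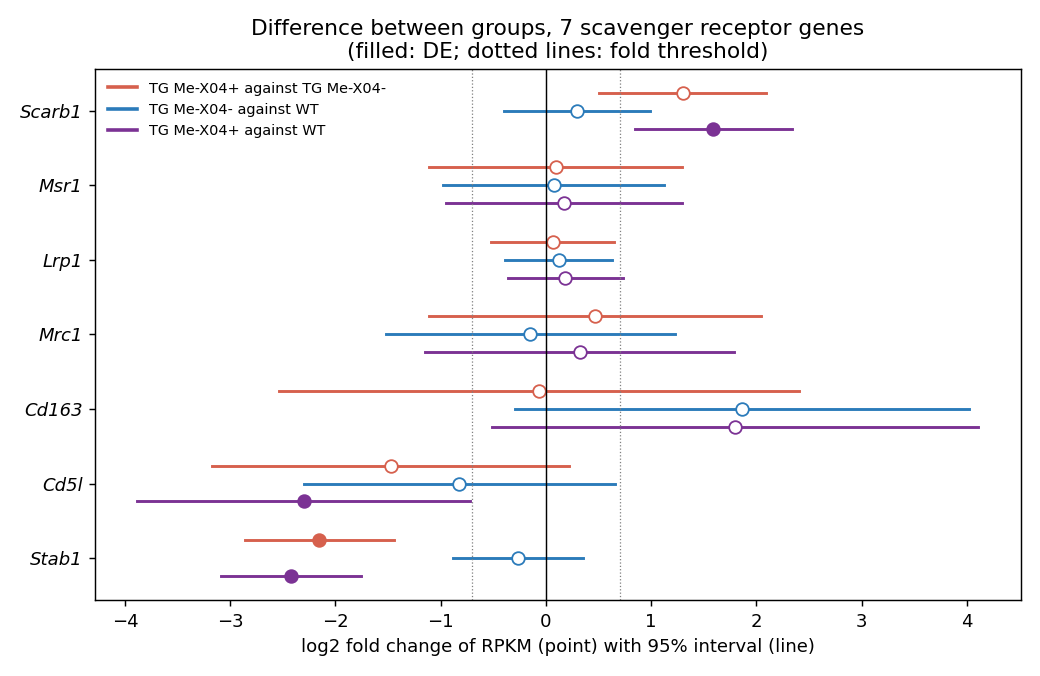
Log2 fold change of each scavenger receptor gene (point) with its 95% interval (line) in the 3 comparisons, filled where the gene was DE, with dotted lines at the fold threshold of 0.7. Stab1 lies at -2.15 and -2.42 in the comparisons with TG Me-X04+, the 3 intervals of Lrp1 are narrow around 0, and those of Cd163 span from -2.53 to 4.11.

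Since Stab1 and Cd5l were both called lower in TG Me-X04+ than in WT, the 250 bases before their start sites were read from RefSeq (GRCm38.p6), at chr14:31168642-31168891 on the minus strand and chr3:87357631-87357880 on the plus strand. They are shown because both hold a half-site of the Maf recognition element, TGCTGA or its reverse complement TCAGCA, which is in capitals.
Stab1: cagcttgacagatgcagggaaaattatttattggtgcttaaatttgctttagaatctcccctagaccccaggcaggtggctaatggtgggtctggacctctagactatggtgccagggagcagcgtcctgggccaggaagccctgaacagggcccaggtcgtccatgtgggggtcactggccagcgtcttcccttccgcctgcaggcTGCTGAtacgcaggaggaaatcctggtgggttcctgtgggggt
Cd5l: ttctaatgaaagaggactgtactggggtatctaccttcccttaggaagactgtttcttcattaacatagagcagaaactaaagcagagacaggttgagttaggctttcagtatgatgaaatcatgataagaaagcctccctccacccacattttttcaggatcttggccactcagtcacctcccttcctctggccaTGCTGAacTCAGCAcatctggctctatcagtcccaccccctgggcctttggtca
In Stab1 a single half-site begins 43 bases before the start. In Cd5l both half-sites face each other across 2 bases, the first beginning 54 and the second 46 bases before the start. Such a pair was counted with any 2 bases between its half-sites, and pairs with another spacing were not searched for. Of 32851 RefSeq promoter windows of the same length, searched on both strands, 16.1% held at least 1 half-site and 1.66% held 2 or more. A pair across 2 bases was held by 2 windows, that of Cd5l among them, a count that covers this spacing only. Promoters of Mrc1, Lrp1 and Cd163 held no half-site in this window, and those of Msr1 and Scarb1 were not searched. The motif was picked after the sequences had been read, so the matches are a description of the letters and say nothing of binding. Any part of Maf proteins in the levels of Stab1 and Cd5l was not tested.

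Mrc1, the mannose receptor, and Cd163, the receptor for haemoglobin-haptoglobin, had the widest spread of the 7 genes among the TG Me-X04+ libraries. Mrc1 (chromosome 2, 14229392 to 14332057, plus strand, ENSMUSG00000026712) stood at 2.85, 3.27, -0.86 and -0.34 log2 RPKM in TG Me-X04+ libraries 1 to 4, from 607, 921, 78 and 116 reads. In TG Me-X04- libraries 1 to 5 it stood at 1.88, 1.61, 0.44, 0.17 and -0.29. In WT it ranged from 0.011 to 1.78 with a median of 0.93. TG Me-X04+ libraries 1 and 2 were thus above every WT library and libraries 3 and 4 below every one.

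Mrc1 did not pass the test between Me-X04+ and Me-X04- TG microglia (log2FC 0.47, 95% interval -1.11 to 2.04, limma adjusted p = 0.798). Within set A the difference was 1.32 and within set B -0.71. Without TG Me-X04+ libraries 1 and 2 it turned to -1.37 against TG Me-X04-. Mrc1 was higher with dye in 2 of the 4 animals and lower in the other 2. Against WT the log2FC was 0.32, with a 95% interval of -1.15 to 1.79. It was 1.73 in set A, where it passed (limma adjusted p = 0.0367), and -1.20 in set B. The microRNA gene Mir511 lies within Mrc1 on the same strand.

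Cd163 (chromosome 6, 124304656 to 124330527, plus strand, ENSMUSG00000008845) was read 107, 55, 52 and 0 times in TG Me-X04+ libraries 1 to 4. TG Me-X04- libraries 1 to 5 held 54, 25, 47, 53 and 17 reads. WT libraries held 0 to 58 reads, and 4 of the 7 were at or below the floor of 3 reads. The groups overlapped. Mean levels were -3.27 ± 1.85 log2 RPKM in WT (SD, n = 7), -1.40 ± 0.78 in TG Me-X04- (SD, n = 5) and -1.47 ± 2.82 in TG Me-X04+ (SD, n = 4).

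The log2FC of Cd163 between TG Me-X04+ and WT was 1.80, with a 95% interval of -0.51 to 4.11 (limma adjusted p = 0.314). TG Me-X04+ library 4 decided this value. Without it the log2FC was 3.16 and passed the threshold (limma adjusted p = 0.0319). Within set A the difference was 4.80 (limma adjusted p = 0.0194) and within set B -0.90. The 3 WT libraries of set A held 0, 3 and 3 reads, all at or below the floor. The value of 4.80 thus depends on the prior reads added to each count. TG Me-X04- against WT gave 1.86, with a 95% interval of -0.29 to 4.02, and the difference between the TG groups was -0.064, with a 95% interval of -2.53 to 2.41.

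Mrc1 and Cd163 are also markers of border-associated macrophages, so a list of 16 other markers of these cells was set beside them. Of the 16, 9 were listed. Their summed level was 1.91 to 7.18 RPKM in WT, 5.87 to 18.1 in TG Me-X04- and 30.3 to 69.8 in TG Me-X04+. Wfdc17, which activated microglia also express, made up most of it in TG Me-X04+. Without Wfdc17 the sums were 1.62 to 5.96, 3.09 to 8.05 and 4.47 to 16.5 RPKM. The hyaluronan receptor Lyve1 was read 143 and 249 times in TG Me-X04+ libraries 1 and 2, and 5 and 0 times in libraries 3 and 4. In TG Me-X04- libraries 1 to 5 the reads of Lyve1 were 28, 35, 7, 7 and 6, and in WT 0 to 27. Lyve1, which is not a defining marker of the list and was not DE, was thus high in the libraries in which Mrc1 was high. The defining markers Pf4 and Cbr2 stayed at 0 to 48 and 0 to 29 reads in all libraries, Pf4 at 0 in TG Me-X04+ library 1 and Cbr2 at 0 in TG Me-X04+ library 3. F13a1, the third defining marker, ranged from 14 to 86 reads in TG Me-X04+. Of the 9 listed markers, Wfdc17 was DE higher in Me-X04+ than in Me-X04- TG microglia, against 3.44% of all genes. In TG Me-X04+ compared with WT, Wfdc17 and Folr2 were DE higher and Ccl24 was DE lower, against 8.25% and 6.02% of all genes. The call of Folr2 was lost in 5 of 29 alternatives, among them the fit without TG Me-X04+ library 1 (log2FC 2.45, limma adjusted p = 0.0554). That of Ccl24 was lost in 12 of 28 alternatives, among them the fits without WT libraries 5, 6 and 7 (adjusted p = 0.0502, 0.0511 and 0.061 by limma) and without TG Me-X04+ libraries 2 and 3 (adjusted p = 0.117 and 0.0901 by limma), with log2FC of -1.77 to -1.40. The part of these cells in the values of Mrc1 and Cd163 was not tested.

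**Figure D3:**
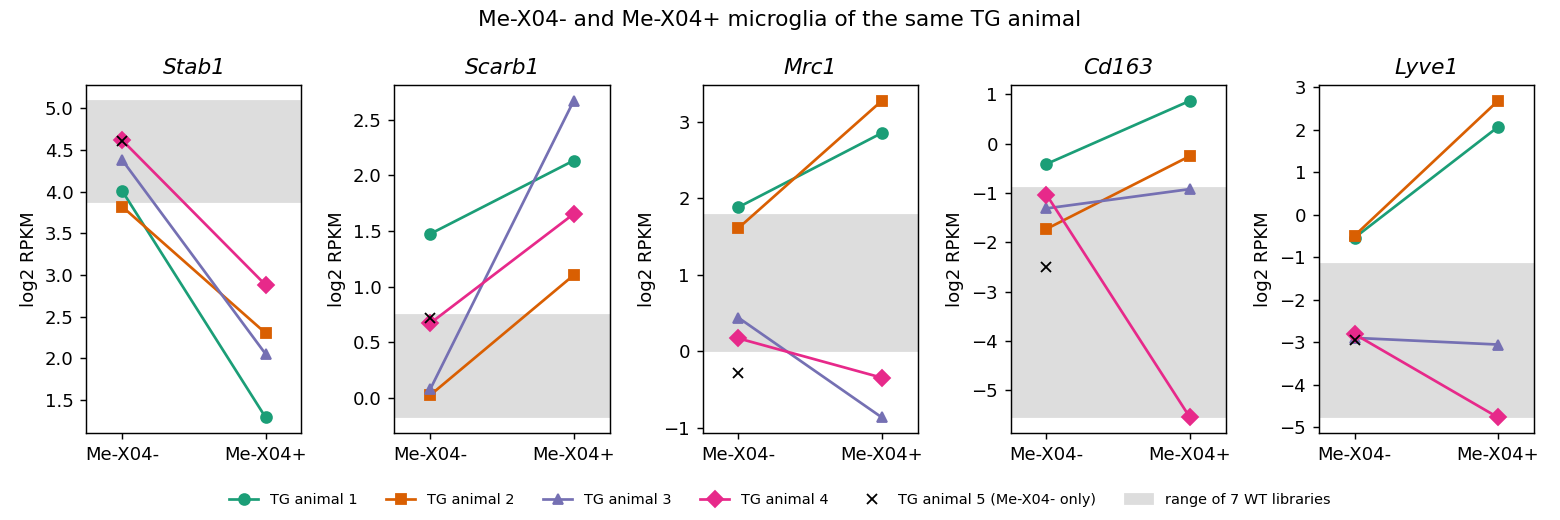
Level in log2 RPKM (vertical axis) of Stab1, Scarb1, Mrc1, Cd163 and the border-associated macrophage marker Lyve1 in the Me-X04- and Me-X04+ microglia of the same TG animal, joined by a line for animals 1 to 4, with a cross for animal 5 and a grey band for the range of the 7 WT libraries. All 4 lines fall for Stab1 and climb for Scarb1, while for Mrc1 and Lyve1 those of animals 1 and 2 climb and those of animals 3 and 4 run down.

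Markers of other cell types were summed in the same way. The cells had been sorted for Cd11b and Cd45, to which the study's methods add CX3CR1. Of 12 markers of monocytes and neutrophils 6 were listed. They summed to 2.71 to 17.0 RPKM in WT, 2.09 to 35.2 in TG Me-X04- and 1.43 to 29.7 in TG Me-X04+. Ccr2 was DE lower in TG Me-X04+ than in WT, against 6.02% of all genes, and the other 5 were not DE. In TG Me-X04+ 5 of the 6 had a log2FC above 0 and 1 below it, against WT as against TG Me-X04-. The medians were 2.22 and 1.34. The other defining markers of this list, Ly6c2 and Plac8, were not among the listed genes. Of 12 markers of endothelium, pericytes and fibroblasts 2 were listed, Flt1 and Kdr, and they summed to 0.274 to 1.16, 0.496 to 1.19 and 1.10 to 2.05 RPKM in the same order of groups. Flt1 was DE higher in TG Me-X04+ against both other groups. Kdr was lower in both of these comparisons without being DE, so the listed markers moved in opposite directions. Cldn5 was not among the listed genes. Of 12 markers of neurons, astrocytes and oligodendrocytes 7 were listed, with sums of 17.7 to 31.9, 16.4 to 29.7 and 12.5 to 21.5 RPKM. Of these 7, Snap25 was DE lower in TG Me-X04+ than in WT, against 6.02% of all genes. The part of all these cell types in the levels of the scavenger receptors was not tested.

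Of the 12 microglial markers, 9 were not DE in TG Me-X04+ against WT. The other 3, P2ry12, Tmem119 and P2ry13, receptors and surface proteins of resting microglia, were DE lower, against 6.02% of all genes. The call of P2ry12 was lost in 3 of 29 alternatives and that of P2ry13 in 2 of 29. P2ry12 lost its call without TG Me-X04+ library 4 (log2FC -0.91, limma adjusted p = 0.054). P2ry13 lost its call without TG Me-X04+ library 3 (log2FC -0.92, limma adjusted p = 0.0574). Median centring removed both calls too (adjusted p = 0.0558 and 0.0537 by limma). Between the TG groups 11 of the 12 were not DE, and Tmem119 was DE lower, against 2.06% of all genes. Tmem119 differed by -1.58 between Me-X04+ and Me-X04- TG microglia (limma adjusted p = 0.00821). This call was lost in 2 of 27 alternatives, among them set A alone (limma adjusted p = 0.0524).

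Lrp1 (chromosome 10, 127538161 to 127621148, minus strand, ENSMUSG00000040249) had the highest mean level of the 7 genes in every group. It ranged from 3.92 to 5.45 log2 RPKM in WT with a median of 4.97. In TG Me-X04- libraries 1 to 5 it was 5.01, 4.71, 4.80, 5.01 and 5.26, and in TG Me-X04+ libraries 1 to 4 it was 4.58, 4.87, 5.15 and 5.48. The 3 groups overlapped throughout. The log2FC was 0.063 between Me-X04+ and Me-X04- TG microglia, with a 95% interval of -0.52 to 0.65 (limma adjusted p = 0.934). Against WT it was 0.12 in TG Me-X04-, with a 95% interval of -0.39 to 0.63, and 0.19 in TG Me-X04+, with a 95% interval of -0.36 to 0.73. The interval against TG Me-X04- leaves out differences of the DE threshold of 0.7 in both directions. With 3997 to 18652 reads per library Lrp1 was also the gene counted most deeply. The antisense gene Gm16217 overlaps it by 1323 bases, and without strand its reads cannot be told apart from those of Lrp1.

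Msr1, the class A receptor for fibrillar Aβ and oxidised LDL, lies on chromosome 8 from 39581685 to 39642673 on the minus strand (ENSMUSG00000025044). It ranged from -1.33 to 1.82 log2 RPKM in WT with a median of -0.29. In TG Me-X04- libraries 1 to 5 it was 0.80, 0.24, -0.16, -1.16 and -0.31, and in TG Me-X04+ libraries 1 to 4 it was 0.45, -0.50, -0.65 and 0.61. The groups overlapped, and WT library 3 was the highest of all 16. The log2FC was 0.093 between Me-X04+ and Me-X04- TG microglia, with a 95% interval of -1.11 to 1.29 (limma adjusted p = 0.954). Against WT it was 0.075 in TG Me-X04- (95% interval -0.97 to 1.12) and 0.17 in TG Me-X04+ (95% interval -0.95 to 1.29). Set A had more Msr1 than set B in WT, with means of 0.57 and -0.77. Msr1 was read 36 to 209 times per library.

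In the order of mean levels per length, Lrp1 stood first and Stab1 second in all 3 groups. In WT the order went on with Mrc1, Scarb1, Msr1, Cd5l and Cd163, and in TG Me-X04- the last 2 changed places. In TG Me-X04+ Scarb1 stood above Mrc1, and Cd163 above Cd5l. In WT the ranges of Lrp1 and Stab1 overlapped, with a difference of means of 0.28, and Lrp1 was higher in 6 of 7 libraries. In TG Me-X04+ the difference between Lrp1 and Stab1 was 2.89, their ranges did not overlap, and Stab1 and Scarb1 were 0.24 apart with 2 of 4 libraries in each order. In TG Me-X04- Lrp1 stood 0.67 above Stab1 in 5 of 5 libraries, also without overlap of ranges. Stab1 and Mrc1 were parted by 3.64 in WT and 3.52 in TG Me-X04- without overlap of ranges. All other neighbours in the order overlapped in their ranges. Summed over the 7 genes the level was 39.2 to 81.1 RPKM in WT, 46.0 to 66.3 in TG Me-X04- and 41.3 to 57.5 in TG Me-X04+.

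To place the 7 genes among their relatives, 24 other scavenger and amyloid-binding receptors were examined, of which 16 were listed. This list and the next were chosen with earlier results of these data known. Of the 16, 3 were DE higher in Me-X04+ than in Me-X04- TG microglia and none was DE lower, against 3.44% and 2.06% of all genes. Their median log2FC was 0.14, against -0.09 over all genes. These were the lysosomal glycoprotein Cd68 (log2FC 1.52), the lipid and Aβ receptor Trem2 (1.35) and Cxcl16, a membrane-bound chemokine that takes up oxidised LDL (1.06). For each the TG Me-X04+ libraries lay above all TG Me-X04- libraries. These were the 3 of the 16 whose groups did not overlap, against 7.93% of all genes. Under quantile normalization, which forces all libraries to the same distribution, the calls of Cd68 (log2FC 0.66) and Trem2 (0.75, limma adjusted p = 0.073) were lost. In TG Me-X04- against WT, 1 of the 16 was DE, against 0.201% of all genes. This was Mrc2, an endocytic collagen receptor and the nearest relative of Mrc1, with a log2FC of 1.11 (limma adjusted p = 0.0459). This call was lost in each of the 12 fits without 1 library. Against WT, 5 were DE higher in TG Me-X04+, against 8.25% of all genes. Cd68, Trem2, Cxcl16 and Mrc2 were joined by the oxidised LDL receptor Olr1 (log2FC 2.83), whose call was lost without TG Me-X04+ library 1 (log2FC 2.26, limma adjusted p = 0.058).

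The second list held 25 relatives, ligands and adaptors of Lrp1, of which 17 were listed. Of the 17, 3 were DE higher in Me-X04+ than in Me-X04- TG microglia and none lower, against the same shares of all genes. Apoe, an apolipoprotein that Lrp1 binds, rose from a mean of 5.94 ± 0.53 log2 RPKM in TG Me-X04- (SD, n = 5) to 9.09 ± 0.83 in TG Me-X04+ (SD, n = 4), a log2FC of 3.15. The endocytic adaptor Dab2 rose by 1.65 and Lrpap1, the chaperone of Lrp1 in the secretory pathway, by 1.47. Lrp1 itself differed by 0.063. The 3 genes of the first list and these 3 kept their direction within both sets, and all lost their calls in set A alone.

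Apoe was the single DE gene of this list between TG Me-X04- and WT, against 0.201% of all genes (log2FC 2.56, limma adjusted p = 0.00847). In TG Me-X04+, 7 genes were DE higher than in WT and none was lower, against 8.25% and 6.02% of all genes. Besides the 3 named, Lrp11 (log2FC 2.49), the matrix protein Thbs1 (2.10), the sorting receptor Sorl1 (0.78) and the chaperone Calr (0.77) were higher. With libraries scaled outside the mitochondrial genes Sorl1 and Calr dropped under the fold threshold, to 0.62 and 0.61. Sorl1 also lost its call without TG Me-X04+ library 2 (log2FC 0.64), and Lrp11 without TG Me-X04+ library 3 (log2FC 1.98, limma adjusted p = 0.052).

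**Figure D4:**
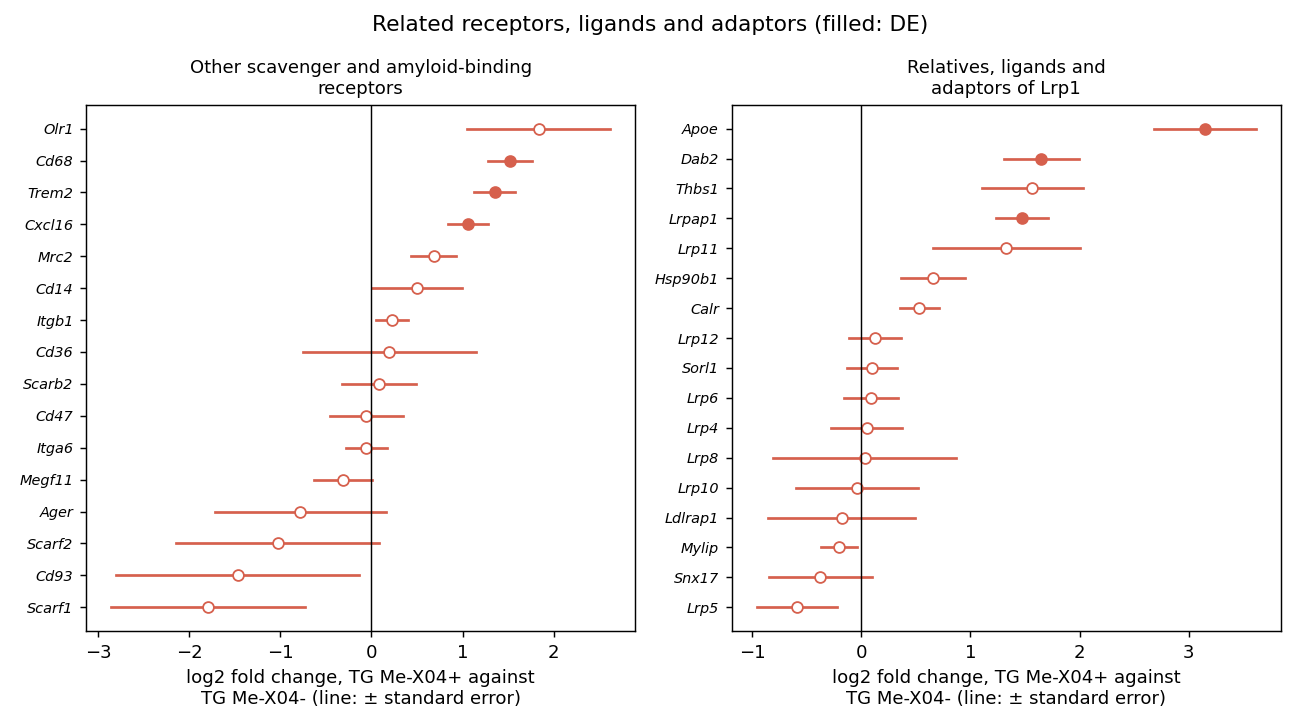
Log2 fold change (horizontal axis) between Me-X04+ and Me-X04- TG microglia of the 16 listed genes of the other scavenger and amyloid-binding receptors and the 17 listed relatives, ligands and adaptors of Lrp1, with the standard error as a line and filled points for DE genes. The filled points lie between 1.06 and 3.15, and no gene of either list was DE lower.

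For the 3 genes called in any comparison, the genes with the most similar pattern over the 16 libraries were sought by Pearson's r of log2 RPKM, as a description. The libraries share group, set and depth, which raise such values. Closest to Stab1 were Ggta1 (r = 0.97), Hrh2 (0.97) and Adamtsl2 (0.96). Closest to Scarb1 were Klhl6 (0.93), F630206G17Rik (0.92) and Atp8a1 (0.91). Closest to Cd5l were Ube2d2b (0.88), Tbc1d14 (0.88) and Tmem150b (0.87).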

How the data were processed

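Microglia of 16 libraries were RNA sequenced. The authors trimmed reads (Trim Galore 0.4.4), aligned them to GRCm38 (STAR 2.5.4b), counted them on Gencode genes with featureCounts, filtered low genes, scaled libraries by TMM and deposited log2 RPKM values (edgeR 3.24.3 is named in their notes). The methods name 2 sequencers, not which library used which. Columns with the authors' own comparisons (fold changes, mean expression, p-values and their scores) were not used. The reads behind each value were recovered from the spacing of its low values, came out whole within 0.01 for 100% of values, and gave depths and floors. All genes were fitted with limma 3.58.1 (R 4.3.3), with 3 groups in 1 fit, a variance trend, no covariate and two-sided p-values adjusted by Benjamini-Hochberg. The step was tested on simulated data. Coordinates are from GENCODE M21 and promoters from RefSeq, both on GRCm38, with 5 of 7 promoters matched. Intervals are those of the moderated test, and floors cover counting error only.

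Same-numbered TG libraries share a genotype label (TG1 to TG4), read as the same animal, and their deviations from the group means correlated at r = 0.292 to 0.329 in all 4 pairs. That the libraries within a group were separate animals is read from these labels. Alternatives were other variance models, weights, scalings, pseudocounts, filters, blocks, a term for the 2 library sets, voom on the recovered reads and leaving out each library; the sets alone, TG Me-X04+ libraries 1 and 2 left out and the marker list without Wfdc17 were added after seeing the data. The members and lists were chosen with earlier results of these data known. Named were all members, at most 5 DE genes per list and comparison by size of log2FC, defining markers, and the 3 genes most like each called member. Nt5dc2, Sorl1, Calr, Lyve1, Maf and the genes that lie within members were named outside this rule, with their values known. Some genes of the lists are not reported here.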

Additional observations from a re-analysis of the deposited data

Results flagged for a closer look

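Of 21 combinations of a gene and a group, 2 held a library set apart from the rest of its group by Dixon's criterion, both for Cd5l. Chance flags about 1 in 20 groups where values have no ties, a rate that does not hold for counts of 0. TG Me-X04- library 2 had no read of Cd5l and stood at -4.41 log2 RPKM, with the next library at -2.15. TG Me-X04+ library 3 held 9 reads and stood at -2.06, while the other 3 libraries of its group held none and stood at -4.41, the value of a count of 0. With those 3 libraries tied, a library with any read at all would have been flagged.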

How the results depend on the processing

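Stab1 kept its direction in all 27 and 29 alternatives against TG Me-X04- and WT, with log2FC between -2.43 and -1.82 against TG Me-X04-. Of the 7 genes, 2 were DE between Me-X04+ and Me-X04- TG microglia, Scarb1 being added, without a variance trend, with quantile normalization, median centring, weighted libraries, a pseudocount of 0.1 or 1, the filter on low values, the animal as a replicate block, a term for the sets, voom and set B alone, and 0 were in set A alone. Leaving out single libraries gave 1 to 2. The same comparison called 986 genes, 470 with only its 2 groups fitted, 2110 with the animal as a replicate block, 2142 with a set term, 85 in set A, 2262 in set B, 493 without TG Me-X04+ libraries 1 and 2, and 552 to 1021 without single libraries, with 552 without TG Me-X04- library 5 and 624 without TG Me-X04+ library 2. TG Me-X04- against WT called 36 genes, 175 with library weights, 13 with a pseudocount of 1, 19 with the filter, 18 with replicate number as a block, 101 with a set term, 19 in set B and 19 to 33 without single libraries, of which 19, 23 and 23 without TG Me-X04- libraries 1, 3 and 4. In set A limma called 0 there, with 1708 genes at an unadjusted p under 0.05. TG Me-X04+ against WT called 2562, 3919 with a set term and 1652 in set A. The block changed no other call of the 7 genes than those given above and that of Cd5l against WT with replicate number as a block (log2FC -2.11, limma adjusted p = 0.115). Of the calls between the TG groups, 62.6% were higher, 50.8% under quantile normalization and 30.0% with libraries scaled outside mitochondrial genes, which moved the median of all genes from -0.09 to -0.37. Against WT the share was 57.8% and 44.5% with that scaling. Stab1 and Scarb1 kept their directions under each scaling.

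Some of the differences not called changed sign with the processing. Between the TG groups, Mrc1 turned to -0.18 with library weights, -0.71 in set B and -1.37 without libraries 1 and 2, Lrp1 to -0.33 under quantile normalization, -0.21 under mitochondrial scaling and -0.13 in set A, Msr1 to -0.18 under that scaling, -0.042 with the number block and -0.54 in set A, and Cd163 to 0.48 under quantile normalization, 0.26 and 0.32 with pseudocounts of 1 and 0.1, 0.018 with the number block and 1.38 in set A. Between TG Me-X04- and WT, Lrp1 turned to -0.14 with weights and -0.18 in set B, Msr1 to -0.013 under quantile normalization, -0.17 with the number block and -0.055 in set A, and Mrc1 to 0.42 in set A. Between TG Me-X04+ and WT, Mrc1 turned to -0.57 with weights, -1.20 in set B and -1.51 without libraries 1 and 2, Cd163 to -0.26 with weights and -0.90 in set B, Lrp1 to -0.17 under quantile normalization, and Msr1 to -0.21 with the number block and -0.60 in set A. Without single libraries the ranges that crossed 0 were, against TG Me-X04-, -0.21 to 1.16 for Mrc1, -0.089 to 0.21 for Lrp1, -0.17 to 0.32 for Msr1 and -0.84 to 1.30 for Cd163. Those of TG Me-X04- against WT were -0.43 to 0.11 for Mrc1, -0.031 to 0.22 for Lrp1 and -0.15 to 0.41 for Msr1, and those of TG Me-X04+ against WT were -0.36 to 1.02 for Mrc1 and -0.041 to 0.50 for Msr1. The causes were not tested. Depth limits Cd5l and Cd163 most, which had libraries without a read.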

Other observations

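The gene of Maf, a transcription factor of macrophages, was looked at after its values had been seen. Its part in the levels of Stab1 and Cd5l was not tested, and other genes of the Maf family are not reported here. Maf had a mean of 6.23 ± 0.48 log2 RPKM in WT (SD, n = 7), 5.68 ± 0.26 in TG Me-X04- (SD, n = 5) and 4.53 ± 0.31 in TG Me-X04+ (SD, n = 4), and was DE lower in Me-X04+ than in Me-X04- TG microglia (log2FC -1.15, standard error 0.26, limma adjusted p = 0.0149).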
